A study of Homo sapiens with 13 samples.

Results

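Homotypic CTCF arrays are artificial enhancers that hold CTCF motifs and no other motif. They were taken as every construct whose syntax in the tables holds only CTCF, which gave 11 of 542 constructs in the 5 bp spacer library, 11 of 442 in the 10 bp library and 11 of 530 in the integrated library. Arrays of 1, 2 and 3 copies were present in each of 3 flanking sequence contexts, and arrays of 4 copies in contexts 1 and 2. In the 5 bp library 1226 barcodes were named as CTCF arrays and 1018 had at least 5 plasmid DNA reads, in the 10 bp library 1492 and 1347. The integrated library held 314 CTCF barcodes. The reference was the construct named rd of the same context, which holds none of the 8 motifs of the design and is called the motif-free construct here.

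CTCF is a zinc-finger DNA-binding protein known for anchoring chromatin loops and for insulating genes from neighbouring enhancers. It is expressed in nearly all cell types, and its motif is bound at promoters, at insulators and at the borders of chromatin domains. In STARR-seq a candidate sequence lies inside the transcribed part of a reporter, so a sequence that drives transcription appears in the mRNA more often than in the input DNA.

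The study measured designed motif arrays in MEC1, an established line of chronic lymphocytic leukaemia, with a wild-type genotype in every sample and no treatment beyond library transfection. Each insert carried a random barcode of 12 bp, which was counted. The episomal assay used unintegrated plasmids with 5 bp or 10 bp between motifs, and RNA was taken 24 h after transfection. Transfections were made in duplicate, so each spacer length had 2 mRNA libraries beside the 1 library of its plasmid pool. Cre-mediated cassette exchange in 8 transfection sets placed the 5 bp inserts in the genome for the integrated assay. Cells without GFP were sorted after 10 to 12 days and grown for 6 to 7 more, and 3 genomic DNA and 3 mRNA samples came from extractions in triplicate. These 3 therefore share their transfections and their sort, and p-values over them measure the spread between extractions.

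The deposited tables identify a CTCF array by its barcode and its syntax, and barcodes that carry the results are printed here in lower case, 5′ to 3′. They are random tags and hold no CTCF motif by design. The first lines show the barcode with the most plasmid reads for a CTCF array of 1 copy, for one of 4 copies and for the motif-free construct, first with 5 bp and then with 10 bp spacers. The last 3 lines show the CTCF barcodes with the highest mean mRNA in the integrated library.
5 bp, 1 CTCF copy, context 1: ctcgccaggaca
5 bp, 4 CTCF copies, context 2: tcacagttgcaa
5 bp, motif-free, context 2: tctgtccgtttt
10 bp, 1 CTCF copy, context 3: cagatttagtcg
10 bp, 4 CTCF copies, context 1: tacccgtccgtc
10 bp, motif-free, context 3: ctggtctaagcc
integrated, 3 CTCF copies, context 2: gctatattctcg
integrated, 1 CTCF copy, context 1: ggtagggcacgc
integrated, 2 CTCF copies, context 2: tcggtgggtgca

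At 5 bp the barcode ctcgccaggaca of 1 CTCF copy had 107 plasmid reads and gave 12 and 4 mRNA reads in the 2 replicates. The barcode tcacagttgcaa of 4 copies had 59 plasmid reads and gave 9 in each. The motif-free barcode tctgtccgtttt had 91 plasmid reads and gave 38 and 43. At 10 bp, cagatttagtcg of 1 CTCF copy had 193 plasmid reads and 8 and 3 mRNA reads, against 57 and 60 mRNA reads from 141 plasmid reads for the motif-free ctggtctaagcc. The barcode tacccgtccgtc of 4 copies in context 1 stood apart from the other CTCF barcodes shown, with 104 and 92 mRNA reads from 143 plasmid reads. The mean GC content of CTCF barcodes was 49.3%, 49.8% and 50.2% in the 5 bp, 10 bp and integrated libraries, beside 49.5%, 49.2% and 50.1% over all named barcodes.

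The episomal libraries held between 3850658 and 4563359 reads each, of which 16.6% to 18.5% lay in barcodes with no construct name. Every barcode of the episomal tables has at least 1 read in each of its 3 libraries, so an insert whose mRNA was never read is not in them. The integrated table gives RPM (mRNA or genomic DNA reads scaled to a common library size) for 16189 barcodes, and no listed barcode falls under 2 RPM in any genomic DNA sample. It gives no read totals for the mRNA, so the depth there is unknown. Between the 2 mRNA replicates, counts over constructs differed by 6.41 times the sampling variance at 5 bp and 6.76 times at 10 bp. Over the 11 CTCF arrays alone these ratios were 0.65 and 2.72.

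With 5 bp spacers all 11 CTCF arrays gave less mRNA than the motif-free construct of their context. Their mean relative to it was -1.61 ± 0.0024 log2 units (SD, n = 2 replicates), or 3.05-fold lower, on the scale of activity, the log2 of an array's share of the mRNA reads over its share of the plasmid reads. The SD leaves out any error of the plasmid library, which both replicates share. The motif-free constructs themselves stood at -1.25 ± 0.03 (SD, n = 2) in context 1, -1.12 ± 0.08 in context 2 and -1.55 ± 0.05 in context 3.

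Arrays of a single CTCF copy were already at this level. In context 1 the array had 3228 plasmid reads over 162 barcodes and gave 384 and 354 mRNA reads, an activity of -2.95 ± 0.05 (SD, n = 2). The motif-free construct of that context had 6778 plasmid reads and gave 2655 and 2389 mRNA reads. In context 2 a single copy gave 372 and 323 mRNA reads from 2525 plasmid reads, and the motif-free construct 3571 and 2888 from 7884. In context 3 it gave 254 and 238 from 2084, and the motif-free construct 2392 and 2202 from 7611. In each context both CTCF replicates lay below both motif-free replicates. The share of all constructs for which this held was not counted. By edgeR 25.1% of 439 constructs were lower than their motif-free construct and 66.1% higher.

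The arrays of 2 copies gave 183 and 170 mRNA reads from 1364 plasmid reads in context 1, 251 and 228 from 2027 in context 2, and 288 and 244 from 2167 in context 3. Those of 3 copies gave 143 and 112 from 1371 in context 1, 221 and 212 from 1558 in context 2, and 205 and 179 from 1701 in context 3. The arrays of 4 copies were thinly represented, with 46 and 28 mRNA reads from 307 plasmid reads over 22 barcodes in context 1 and 83 and 87 from 725 over 37 barcodes in context 2. Over all 11 arrays activity ran from -3.26 for 3 copies in context 1 to -2.67 for 3 copies in context 2, a range that no motif-free replicate entered. It spanned ranks 2 to 38 of 542 constructs, counted from the lowest. The barcode with the most mRNA held between 2.16% and 15.2% of an array's mRNA reads, and without it activities lay between -3.25 and -2.70.

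By edgeR's quasi-likelihood test with TMM scaling, all 11 arrays were lower in mRNA than in plasmid DNA at 5 bp, beside 49.5% of the 442 constructs tested, and none was higher, beside 40.5%. Their median log2 ratio was -2.36, against -0.14 over all constructs. Scaling by library totals or on the motif-free constructs moved the median of all constructs by -0.67 or 0.75, and the highest CTCF array then stood at -2.79 or -1.38. Set against the motif-free construct of the same context, all 11 were lower again, beside 25.1% of 439 constructs, and none higher, beside 66.1%. Their log2 differences lay between -2.0 and -1.30, with standard errors between 0.11 and 0.21. The largest adjusted p by edgeR among them was 1.8e-14, and the median was -1.57, against 0.62 over all constructs. Arrays of one context share their motif-free construct and therefore its error. The fit took the motif-free count as fixed, so that error is not in these standard errors and p-values. Each plasmid pool had 1 library, so its spread was taken from that of the mRNA duplicates. The p-values therefore do not measure the full uncertainty of the differences.

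With 10 bp spacers all 11 arrays again lay below the motif-free constructs, on average at -2.25 ± 0.0048 log2 units relative to them (SD, n = 2), or 4.77-fold lower. The motif-free constructs stood higher here, at -0.68 ± 0.09 (SD, n = 2), -0.31 ± 0.06 and -0.87 ± 0.08 in contexts 1 to 3. A single CTCF copy gave 648 and 576 mRNA reads from 4910 plasmid reads in context 1, where the motif-free construct gave 6177 and 5612 from 10404. It gave 583 and 589 from 4346 in context 2, against 9652 and 9033 from 12769, and 771 and 760 from 5604 in context 3, against 6419 and 5871 from 12397. CTCF and motif-free replicates did not overlap in any context. The share of all constructs without such overlap was not counted. By edgeR 44.9% of 439 constructs were lower than their motif-free construct and 44.9% higher.

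The arrays of 2 copies at 10 bp had activities of -2.84 ± 0.21, -2.76 ± 0.14 and -2.80 ± 0.14 (SD, n = 2) in contexts 1 to 3, and those of 3 copies -3.06 ± 0.02, -3.22 ± 0.21 and -3.03 ± 0.19. The 2 arrays of 4 copies were the lowest and the highest of the 11. In context 2 the array gave 120 and 113 mRNA reads from 1602 plasmid reads over 44 barcodes, an activity of -3.64 ± 0.05. In context 1 it gave 151 and 126 from 490 over 12 barcodes, an activity of -1.69 ± 0.17. The barcode tacccgtccgtc held 70.8% of that array's mRNA reads, and without it the activity was -2.98 ± 0.32, within the range of the other arrays. Without the array the mean difference from the motif-free constructs was -2.38 ± 0.01, or 5.20-fold.

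At 10 bp edgeR called all 11 arrays lower in mRNA than in plasmid DNA, beside 48.6% of 442 constructs, with a median log2 ratio of -2.28 against -0.12 over all. Against the motif-free construct of the same context all 11 were lower too, beside 44.9% of 439 constructs. These differences ran from -3.33 for 4 copies in context 2 to -1.0 for 4 copies in context 1, with a largest adjusted p by edgeR of 1.3e-10. The median of the 11 was -2.18, against -0.05 over all constructs. The limits on standard errors and p-values given for the 5 bp library hold here too.

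In the order of activities, the CTCF arrays took ranks 2 to 38 of 542 constructs counted from the lowest at 5 bp, with all 11 among the 54 lowest. Of the 36 constructs below the second-highest CTCF array, 33 held a CTCF motif alone or mixed, out of 93 such constructs in all. That cut is itself a CTCF array, and the 33 include the homotypic CTCF arrays below it. At 10 bp the ranks ran from 4 to 108 of 442, and from 4 to 43 without the array of 4 copies in context 1. The motif-free constructs of contexts 1 to 3 had ranks 188, 210 and 156 at 5 bp and 220, 253 and 192 at 10 bp.

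Matched arrays of the same copy number and context were available for MEF2, a factor of muscle and lymphocyte gene control, and for PU1 and RUNX3, which act in blood cell development. At 5 bp the mean differences of CTCF arrays from these were -1.67 ± 0.07, -1.31 ± 0.04 and -1.5 ± 0.03 log2 units (SD, n = 2 replicates). In each of the 11 matched pairs of every one of these motifs the CTCF array was lower, as the highest differences were -0.63, -0.47 and -0.55. At 10 bp the mean differences were -2.04 ± 0.06 from MEF2, -1.21 ± 0.08 from PU1 and -2.39 ± 0.07 from RUNX3. There the single differences reached 0.31 for MEF2 and 1.05 for PU1, and stayed at or below -0.53 for RUNX3. Each of these highest differences was that of the array of 4 copies in context 1. Its activity was -1.69, and -2.98 without the barcode tacccgtccgtc. The pairs share contexts and plasmid pools, so no test was made over them.

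Many CTCF barcodes stood at the lowest count that the episomal tables can hold. At 5 bp 46.3% ± 1.11 of the 1018 CTCF barcodes had exactly 1 mRNA read in a replicate (SD, n = 2), against 19.5% ± 2.56 of the 1712 motif-free barcodes and 12.6% of all kept barcodes. At 10 bp the shares were 38.5% ± 2.89, 9.00% ± 0.96 and 9.14%. In both replicates at once, 248 CTCF barcodes had 1 read at 5 bp and 246 at 10 bp, which is 24.4% and 18.3% of them, against 6.72% and 1.73% of motif-free barcodes. CTCF barcodes carried a mean of 2.26 mRNA reads and 18.7 plasmid reads at 5 bp, and motif-free barcodes 4.70 and 13. At 10 bp these means were 3.26 and 26.0 for CTCF, and 8.81 and 14.6 for motif-free barcodes.

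If every barcode of an array had 1 mRNA read, its activity would be the lowest that the table allows. CTCF arrays lay between 0.71 and 1.45 log2 units above that limit at 5 bp, and the motif-free constructs between 2.05 and 2.38. At 10 bp CTCF arrays lay between 1.34 and 3.52 above it, and the motif-free constructs between 2.93 and 3.39. The 3.52 was that of 4 copies in context 1, where the barcode tacccgtccgtc held 70.8% of the mRNA reads. The next highest CTCF array was 1 copy in context 2, at 1.90. The limit bounds how low an array can be measured, and the episomal differences are differences above it.

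The difference from the motif-free constructs was larger among barcodes with more plasmid reads, where the limit lies lower. At 5 bp pooled CTCF barcodes differed from pooled motif-free barcodes by -0.76 ± 0.16 log2 units (SD, n = 2) among those with 5 to 9 plasmid reads. This difference was -1.29 ± 0.06 with 10 to 19 reads, -1.84 ± 0.02 with 20 to 49 and -2.07 ± 0.19 with 50 or more, where 46 CTCF and 23 motif-free barcodes remained. At 10 bp the 4 differences were -1.19 ± 0.04, -1.71 ± 0.11, -2.38 ± 0.0030 and -2.62 ± 0.16, the last over 149 and 68 barcodes. Pooled CTCF activity itself went from -1.78 to -3.51 across these classes at 5 bp and from -1.56 to -3.38 at 10 bp. Motif-free activity moved less, from -1.02 to -1.44 and from -0.37 to -0.77. Among CTCF barcodes with 50 or more plasmid reads, 14.1% ± 4.61 still had 1 mRNA read at 5 bp and 14.4% ± 0.47 at 10 bp.

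Single barcodes showed the same order. At 5 bp the median log2 ratio over CTCF barcodes was -2.90 with quartiles of -3.52 and -2.32, and over motif-free barcodes -1.49 with quartiles of -2.11 and -0.92. At 10 bp the medians were -3.07 and -0.78. A ratio above 0, more mRNA than plasmid in share, was seen for 7 CTCF barcodes or 0.69% at 5 bp and for 21 or 1.56% at 10 bp, against 2.51% and 16.0% of motif-free barcodes.

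At 5 bp mean activity was -2.85 ± 0.04 (SD, n = 2) with 1 copy, -2.84 ± 0.02 with 2, -2.97 ± 0.0089 with 3 and -2.91 ± 0.09 with 4. The slope, with context as a term, was -0.04 ± 0.04 log2 units per added copy. Within one copy number the arrays of different contexts spread more than that, for 3 copies from -3.26 to -2.67. At 10 bp the means were -2.78 ± 0.03, -2.80 ± 0.03, -3.10 ± 0.13 and -2.66 ± 0.11, with a slope of -0.02 ± 0.04. That slope rested on the array of 4 copies in context 1 with its 12 barcodes and was -0.23 ± 0.02 without it, as chosen after the data were seen. The slopes are descriptions over constructs, with no test. At 5 bp CTCF arrays lay at most 1.45 log2 units above the lowest measurable activity. Whether that limit bore on the slope was not tested.

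Over 1 to 3 copies, CTCF arrays at 10 bp had mean activities of -2.92 ± 0.04 (SD, n = 2), -2.91 ± 0.11 and -2.85 ± 0.11 in contexts 1 to 3, while the motif-free construct of context 2 lay above that of context 3 by more than its spread. Relative to the motif-free constructs the same arrays therefore stood at -2.24 ± 0.13, -2.60 ± 0.05 and -1.98 ± 0.03. At 5 bp their activities were -2.99 ± 0.0014, -2.75 ± 0.04 and -2.91 ± 0.0098, and relative to the motif-free constructs -1.74 ± 0.03, -1.64 ± 0.12 and -1.36 ± 0.04. Over 1 to 3 copies, context 3 gave the smallest relative difference in both libraries. These CTCF arrays lay closer than the motif-free constructs to the lowest measurable activity. Whether that limit bore on the contexts, and whether contexts differed in the CTCF effect, was not tested.

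Between the spacer lengths, CTCF arrays differed little on average with TMM scaling, and moved with all other constructs when scaled on the motif-free ones. By edgeR the difference in log2 ratio (10 bp minus 5 bp) averaged 0.05 over the 11 CTCF arrays with TMM, 0.16 by library totals and -0.66 scaled on the motif-free constructs. Those scalings moved the median of all constructs by 0.11 and -0.71 against TMM. With TMM it passed as lower for 2 arrays, beside 41.2% of 442 constructs, and as higher for 1, beside 36% of them. Scaled on the motif-free constructs it passed as lower for 10 and as higher for 0, beside 69.2% and 14.9% of all constructs. By library totals it passed for 2 and 2, beside 37.1% and 41.6%. The median of all constructs under the first of these scalings was -0.76, below the CTCF mean of -0.66. The 2 lower arrays lay in context 2, at -0.53 (SE 0.16, adjusted p = 0.0060) for 3 copies and -0.71 (SE 0.18, adjusted p = 0.0019) for 4. The higher array was that of 4 copies in context 1, at 1.20 (SE 0.23, adjusted p = 0.00018), and without its barcode tacccgtccgtc the difference was -0.12 with an adjusted p of 0.72. Without 5 bp mRNA replicate 2 only the array of 4 copies in context 2 passed as lower. The 3 arrays of 1 copy, which hold no spacer between motifs, differed by 0.10, -0.05 and 0.18 and did not pass.

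The motif-free constructs, which by their syntax hold no spacer between motifs either, were higher in the 10 bp library with TMM. They differed by 0.58, 0.81 and 0.69 in contexts 1 to 3 (largest adjusted p by edgeR 3.4e-05). Whether inserts of 1 copy or of none have the same sequence and length in both libraries is not known here. Set against them, 9 CTCF arrays were lower at 10 bp than at 5 bp, beside 67.4% of 439 constructs, and 1 was higher, beside 16.2%. The mean of the 11 was -0.65, against a median of -0.76 over all constructs and -0.63 over the CTCF arrays. Arrays of 1 copy differed by -0.48, -0.87 and -0.50 here. With at least 20 plasmid reads per barcode 7 arrays were lower, beside 64.6% of 424 constructs. In context 1, 1 copy then stood at -0.33 (edgeR adjusted p = 0.11) and 2 copies at -0.28 (0.27), the latter from -0.63. The higher array was again that of 4 copies in context 1, and it turned to -0.70 without tacccgtccgtc. The higher call was also lost without 5 bp mRNA replicate 2 and without 10 bp mRNA replicate 1. Spacer length, plasmid pool and transfection cannot be told apart, since each spacer length came with its own plasmid pool and duplicate transfections.

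After integration into the genome the mean shares of barcodes with mRNA lay close together for CTCF arrays and motif-free constructs. This share is not the episomal measure, since every episomal barcode listed had mRNA in both replicates. In the 3 extractions 29, 40 and 19 of the 314 CTCF barcodes had any mRNA, and 9, 16 and 10 of the 123 motif-free barcodes. The shares were 9.34% ± 3.35 and 9.49% ± 3.08 (SD, n = 3), whose spreads overlap, and their difference was -0.14 ± 2.0 percentage points. An exact two-sided permutation test gave p = 0.9, where 3 against 3 values can give no less than 0.1. It treated the CTCF and motif-free shares as unpaired, although both come from the same 3 extractions. It therefore cannot decide whether the shares differ. The difference and its SD were taken within extractions. In the first extraction the share was 9.24% (exact 95% interval 6.27% to 13%) for CTCF and 7.32% (3.40% to 13.4%) for motif-free barcodes, intervals that cover counting error only. By copy number the CTCF shares were 9.67% ± 2.52, 10.4% ± 3.68, 8.33% ± 4.34 and 8.89% ± 3.85 for 1 to 4 copies. In comparison, 58.9% ± 6.51 of the barcodes of IRF, a family of interferon-response factors, had mRNA, and 5.65% ± 1.20 of RUNX3 barcodes.

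No mRNA was listed in any extraction for 246 of the 314 CTCF barcodes, or 78.3%. It was listed in 1 extraction for 53, in 2 for 10 and in all 3 for 5. For motif-free barcodes these numbers were 99, 17, 3 and 4 of 123. A value of 0 in this table does not say that an insert was silent, since the number of mRNA reads behind it is unknown.

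The integrated CTCF mRNA came mostly from few barcodes. The barcode gctatattctcg of 3 copies in context 2 gave 2605, 2293 and 3097 RPM of mRNA, against 299.1, 360 and 298 RPM of genomic DNA, and held 49.8% of all CTCF mRNA. The barcode ggtagggcacgc of 1 copy in context 1 gave 435.6, 503 and 548 RPM, against 134, 98.6 and 58.1 RPM of genomic DNA. The barcode tcggtgggtgca of 2 copies in context 2 gave 0, 1268 and 0.10 RPM, against 28.6, 18.3 and 31.2, and so had most of its mRNA in 1 extraction. These 3 barcodes held 67.0% of CTCF mRNA. Among motif-free barcodes the highest held 63.1% and the top 3 held 80.0%.

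Pooled over all barcodes, the log2 ratio of mRNA to genomic DNA was -0.79 ± 0.24 (SD, n = 3) for CTCF arrays and -0.65 ± 0.43 for motif-free constructs. Without the highest barcode of each group it was -1.79 ± 0.58 and -2.04 ± 0.30, and without the top 3 it was -2.32 ± 0.31 and -2.88 ± 0.17. The order of the 2 means thus changed when the highest barcode of each group was left out. Their spreads overlapped before and after that step, though not without the top 3. The genomic DNA of CTCF inserts held to their plasmid share, with a log2 ratio of genomic to plasmid share of -0.02 ± 0.03, beside -0.27 ± 0.03 for motif-free inserts.

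Single integrated arrays varied widely between extractions. On log2(RPM + 0.5) of summed values, the array of 3 copies in context 2 stood at 1.5, 1.24 and 1.76 above its genomic DNA, and that of 1 copy in context 1 at -1.27, -0.54 and -0.57. The array of 2 copies in context 2 stood at -3.31, 0.81 and -10.4, and that of 4 copies in context 1, with 6 barcodes, had 129 RPM of mRNA in the first extraction and was listed at 0 in the other two. Values of arrays near 0 RPM depend on the added 0.5. The SD over extractions had a median of 0.99 over CTCF arrays and 0.23 over the motif-free constructs. The motif-free constructs differed between contexts, from -3.77 ± 0.16 in context 3 to 0.75 ± 0.49 in context 2 (SD, n = 3), and in context 2 the barcode with the most mRNA held 84.0% of it. In rank, CTCF arrays lay between 28 and 483 of 513 constructs, with a median of 180 and 2 arrays among the 51 lowest.

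By limma 6 of the 11 integrated arrays had less mRNA than genomic DNA, beside 55.9% of 513 constructs, and 1 was higher, beside 13.5%. With each sample centred on its median, which moved the median of all constructs by 1.52, the lower count was 2, beside 16.2% of constructs. The higher array was that of 3 copies in context 2 at 1.5, which turned to -1.5 without gctatattctcg. Against the motif-free construct of the same context, 2 arrays were lower, beside 29.4% of 510 constructs, and 1 was higher, beside 30.4%. The lower ones were 1 copy in context 2 at -3.08 (limma adjusted p = 0.00093) and 4 copies in context 2 at -1.85 (adjusted p = 0.044), and the higher one 1 copy in context 3 at 1.58 (adjusted p = 0.043). With the motif-free constructs of the 3 contexts summed as the reference, that last value was -1.54. The higher call was lost without any one of the 3 replicates. The lower call of 4 copies in context 2 was lost without replicate 1 (limma adjusted p = 0.12) and without replicate 2 (0.14). Without the top barcode of each construct both lower calls were lost, at limma adjusted p of 0.37 for 1 copy and 0.19 for 4 copies. The median of the 11 differences was 0.03 and their mean -1.45, which differ in sign, against a median of -0.23 over all constructs.

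Integrated copy number gave mean activities of -1.77 ± 0.22, -2.74 ± 2.28, -2.53 ± 1.65 and -3.54 ± 1.39 (SD, n = 3) for 1 to 4 copies, and a slope of -0.56 ± 0.41 per copy. The spread between extractions exceeded the steps between copy numbers from 2 copies on. Against matched arrays, CTCF stood at 1.5 ± 1.12 from MEF2, -0.93 ± 1.5 from PU1 and 1.10 ± 0.96 from RUNX3, with single differences on both sides of 0 for each motif. These differences are descriptions, and that from PU1 was smaller than its SD over extractions.

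The integrated inserts came from a 5 bp library as well, and 10626 of the 16189 integrated barcodes also appear in the 5 bp episomal table. Of those listed and named there, 9404 of 9495 carry the same construct name, whereas 345 integrated barcodes appear in the 10 bp table. The episomal table lists only barcodes with a read in all 3 of its libraries, so a barcode can be missing for want of a plasmid read or of an mRNA read in either replicate. Which of these applied was not tested. Among CTCF arrays 234 of 314 integrated barcodes were missing there, or 74.5% (exact 95% interval 69.3% to 79.2%). Among motif-free constructs 47 of 123 were missing, or 38.2% (29.6% to 47.4%). These 2 intervals do not overlap, and they cover counting error only, since barcodes of one construct are not independent samples.

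The other 7 motifs lay below the CTCF share as well, from 12.2% missing for NFKB to 44.3% for RUNX3. Each of the 11 CTCF arrays, with between 60.6% and 85.3% missing, lay above each of the 3 motif-free constructs, with 33.3% to 45.7%. By copy number the missing shares were 67.0%, 80.7%, 76.7% and 73.3% for 1 to 4 copies. Mixed arrays that hold CTCF had 71.9% of 2825 barcodes missing, and mixed arrays without it 23.3% of 9936. Depth in the integrated plasmid library was similar, with a median of 65 reads for CTCF and 75 for motif-free barcodes. Within classes of 5 to 29, 30 to 99 and 100 or more plasmid reads, 78.9%, 77.6% and 67.3% of CTCF barcodes were missing, against 42.9%, 44.9% and 28.3% of motif-free barcodes.

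Barcode numbers followed the same pattern. The 5 bp table named 3.90 times as many CTCF barcodes as the integrated table, 22.1 times as many motif-free ones, and between 16.4 and 47.0 times as many for the other 7 motifs. The 1018 CTCF barcodes behind the episomal values are therefore those that gave at least 1 mRNA read in both replicates, and the episomal differences were measured among them. A difference between the plasmid pools of the assays was not tested.

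Some of the CTCF barcodes missing from the episomal table gave mRNA in the integrated assay. Any mRNA was listed there for 53 of 234 missing barcodes, or 22.6%, and for 15 of 80 present ones, or 18.8%. For motif-free barcodes it was 11 of 47 and 13 of 76, or 23.4% and 17.1%. These differences were not tested. Of the barcodes listed under the same name in both tables, 67 were CTCF and 69 motif-free. Their median plasmid reads in the episomal library were 16 and 12, their median mRNA reads 1.5 and 4, and integrated mRNA was listed for 14 and 13 of them.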

How the data were processed

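The 2 episomal tables hold raw read counts per barcode as deposited by the authors, with no normalization named in the file headers. The integrated table holds RPM values of barcodes that the authors had filtered to at least 2 RPM in each genomic DNA sample, per the file headers, and plasmid counts. The counting software was not given in the sources used here, and 9 columns of per-sample values that matched no sample were not used.

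Barcodes with a construct name and at least 5 plasmid reads were added up for each construct, keeping those with 5 or more such barcodes (3 when integrated). Activity is the log2 ratio of the mRNA share to the plasmid share per replicate, or of mRNA to genomic DNA (RPM + 0.5) when integrated. Counts of the 442 constructs in both episomal tables were tested in 1 edgeR 4.0.16 quasi-likelihood fit over 6 libraries with TMM scaling. A second fit took the motif-free count of the same context and library as a fixed offset, so its error is not in the p-values. RPM values were tested with limma 3.58.1 in R 4.3.3. P-values were adjusted by Benjamini-Hochberg over all constructs, with a threshold of 0.05, and the fits were checked on simulated counts. DESeq2 1.42.0, other read and barcode minimums, scalings, pseudocounts and left-out replicates were alternatives. The episomal transfections were made in duplicate, but nothing in the labels says that the mRNA replicates came from separate cultures. The p-values may therefore measure technical spread.

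All CTCF arrays and motif-free constructs are reported. Single barcodes were named by the highest plasmid reads in the episomal tables and the highest mean mRNA in the integrated one. The members, lists and tests were chosen with earlier results of these data known. Motif and flanking sequences were not used here.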

Additional observations from a re-analysis of the deposited data

Results flagged for a closer look

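The test of the difference between spacer lengths (edgeR, 10 bp minus 5 bp, log2) passed for several CTCF arrays, which are given here in full. With TMM scaling the array of 3 copies in context 2 differed by -0.53 and that of 4 copies in context 2 by -0.71, while that of 4 copies in context 1 differed by 1.20. Relative to the motif-free construct of the same context, arrays of 1 copy differed by -0.48, -0.87 and -0.50 in contexts 1 to 3 and arrays of 2 copies by -0.63, -0.65 and -0.63. Arrays of 3 copies differed by -1.35 in context 2 and -0.73 in context 3, and in context 1 by -0.37, which did not pass (adjusted p by edgeR 0.051). Arrays of 4 copies differed by 0.62 in context 1 (adjusted p = 0.024) and -1.53 in context 2. The motif-free constructs themselves differed by 0.58 to 0.81, which all values relative to them share.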

How the results depend on the processing

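In both episomal libraries every CTCF array tested stayed lower than plasmid DNA and than its motif-free construct under the other read and barcode minimums, scalings and references, without each replicate, without the top barcode and with DESeq2 or the replicate block, with adjusted p by edgeR or DESeq2 of at most 0.0050. With at least 50 plasmid reads per barcode, chosen after the data were seen, only 3 arrays could be tested, and 3 were lower in each of these comparisons. The spacer difference depended on scaling. Scaled on the motif-free constructs, a shift of all constructs by -0.71, 10 arrays were lower at 10 bp (69.2% of all constructs), and 5 arrays changed sign, as did 26.5% of all: 1 copy in contexts 1 and 3 to -0.61 and -0.52, 2 copies in contexts 2 and 3 to -0.55 and -0.65, and 3 copies in context 1 to -0.50. Without the barcode with the most mRNA, 4 copies in context 1 turned to -0.12, and to -0.70 relative to the motif-free construct. With TMM scaling and a replicate left out, the mean difference over the 11 arrays ran from -0.01 to 0.10. The higher call relative to the motif-free construct was lost with DESeq2.

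In the integrated library the count lower than genomic DNA was 2 with median centring, beside 16.2% of all constructs, and 4 without any one replicate. With that centring 1 copy and 2 copies in context 1 turned to 0.73 and 0.55. Without its top barcode, 3 copies in context 2 turned to -1.50. The count lower than the motif-free construct was 1 with at least 20 barcodes and 1 with at least 20 plasmid reads. Without a replicate it was 1 to 3. Without the top barcode it was 1 (4 copies in context 1), while both arrays named in the comparison lost the call. The top barcode of 4 copies in context 1 held 100% of its mRNA, so its value then rested on the added 0.5. In that setting 2 arrays were higher, among them 2 copies in context 3 at 1.73 (limma adjusted p = 0.017). With the motif-free constructs summed, arrays of 1, 2 and 3 copies in context 3 turned to -1.54, -2.30 and -2.88. The share difference ran from -1.17 to 0.82 percentage points without a replicate.

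The slope per copy at 10 bp was -0.16 without the highest copy number, 0.034 without single copies, -0.23 with at least 20 barcodes, -0.061 by barcode medians and -0.23 without 4 copies in context 1. Without a replicate it ran from -0.05 to 0.01, at 5 bp from -0.07 to -0.01 and integrated from -0.79 to -0.43. The cause of these changes was not tested.

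Samples with equal replicate numbers showed no correlated deviations (correlations between -0.03 and 0.05). Few barcodes carried the integrated CTCF mRNA, so a low correlation there cannot decide whether the extractions were paired. With the replicate number as a block, 10 arrays were lower at 10 bp relative to the motif-free construct. Of the integrated arrays 5 were lower than genomic DNA, and 1 was lower and 0 higher than the motif-free construct. The lower call of 4 copies in context 2 was lost there (limma adjusted p = 0.075). Without the block 67.4%, 55.9%, 29.4% and 30.4% of all constructs passed in these comparisons, in that order. Where a count in this section has no share of all constructs beside it, that share was not taken under the same setting.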
